A study of Homo sapiens with 10 samples.

Results

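The response to nutlin-3a was compared between U2OS cells with ARVCF knocked down and U2OS cells with a control shRNA. U2OS is a human osteosarcoma cell line. The comparison used 8 of the 10 RNA sequencing libraries of the series, 1 untreated and 1 treated library from each of 4 lines. For each line, the nutlin-3a effect was the log2 ratio of the treated to the untreated value after 1 was added to both, and the 3 effects of the shARVCF lines were set against that of the control line. Of 26040 genes listed, the 14773 with a value of at least 10 in 3 or more of the 8 libraries were tested. Replicates 2 and 3 of the treated control, which have later library numbers, were left out of the fit and are given only as a check.

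All 4 lines were made by infecting U2OS cells with lentivirus, followed by selection in puromycin at 1 µg/ml. The control line (shCont) carries a negative control shRNA. The lines shARVCF 1, 2 and 3 each carry a different shRNA against ARVCF. Untreated cells were compared with cells given 10 µM nutlin-3a for 24 h, and the labels say that single clones were treated. Each line is therefore 1 clone, so the shRNA, the clone and the loss of ARVCF cannot be told apart within a line, and the control is 1 clone only. The question behind the series is what ARVCF does to p53-driven transcription.

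The tumour suppressor p53 is a transcription factor held at a low level by MDM2, a ubiquitin ligase that marks it for degradation. Nutlin-3a fills the pocket of MDM2 that binds p53, so p53 accumulates, switches on its target genes, and through the cyclin-dependent kinase inhibitor p21 (CDKN1A) arrests the cell cycle, after which genes of DNA replication and mitosis are repressed by RB and DREAM complexes. ARVCF is a catenin of the p120 family, which binds the tails of cadherins at adherens junctions and is also found in the nucleus.

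ARVCF itself (chromosome 22, 19969896 to 20016808, minus strand, in build hg38) went from 618 to 2928 scaled fragments in the control line and from 292 to 1284, 343 to 1188 and 338 to 1232 in lines 1, 2 and 3. It was lower in every shARVCF library than in the control library of the same treatment. The drug raised it in all 4 lines, by log2 2.24 in the control line and 2.13, 1.79 and 1.86 in lines 1, 2 and 3, and the 2 kinds of line did not pass the test for a difference of these effects, at log2 -0.31 (SE 0.19, adjusted p = 0.254). The 8 libraries held scaled totals of 17821751 to 19903778 fragments, the highest in the treated control library. A first principal component with 66.0% of the variance set treated apart from untreated libraries. The second, with 15.6%, set the treated control library (-69.8) apart from the 3 treated shARVCF libraries (27.8 to 34.9), while the 4 untreated libraries lay between -11.9 and -2.33.

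On the values as deposited, the drug moved more genes past log2 1 in the control line than in any shARVCF line. Of 14773 genes, 5561 changed by more than log2 1 in the control line, beside 3006, 2671 and 2801 in shARVCF lines 1, 2 and 3. The SD of the effect across genes was 1.44 in the control line and 1.15, 1.06 and 1.03 in the shARVCF lines. Genes are not independent replicates, and across them the effects of 2 shARVCF lines had a Pearson r of 0.82 to 0.85. Those of the control line and a shARVCF line had 0.71 to 0.72. By limma with Benjamini-Hochberg adjustment, the drug effect was called at an adjusted p under 0.05 for 7359 genes in the control line (49.8% of genes tested) and 6468 in the shARVCF lines (43.8%). The control effect sets 1 library against 1 and the shARVCF effect 3 against 3, so these counts are not like for like. With the trend of each library on transcript length and GC content removed, as described further on, the order turned, with 5831 genes in the control line (40.1%) and 6655 in the shARVCF lines (45.7%).

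The difference between the 2 kinds of line, taken as the mean shARVCF effect minus the control effect, was called for 3940 genes (26.7%). For 2446 of them (16.6%) the effect was higher in the shARVCF lines, and for 1494 (10.1%) it was lower. Each called gene had all 3 shARVCF effects above, or all 3 below, that of the control line. The difference was at least 1 on the log2 scale for 1550 of the genes with a higher and 606 of those with a lower effect, and at least 2 for 289 and 21. Most called genes had a change in the control line that was smaller or not called in the shARVCF lines. Among the 2446, 1198 fell in the control line and were not called in the shARVCF lines, 716 fell in both, 262 rose in the shARVCF lines alone by call, and 221 fell in the control line and rose in the shARVCF lines. Among the 1494, 824 rose in the control line and were not called in the shARVCF lines, 342 rose in both, 200 fell in the shARVCF lines alone by call, and 90 rose in the control line and fell in the shARVCF lines.

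**Figure D1:**
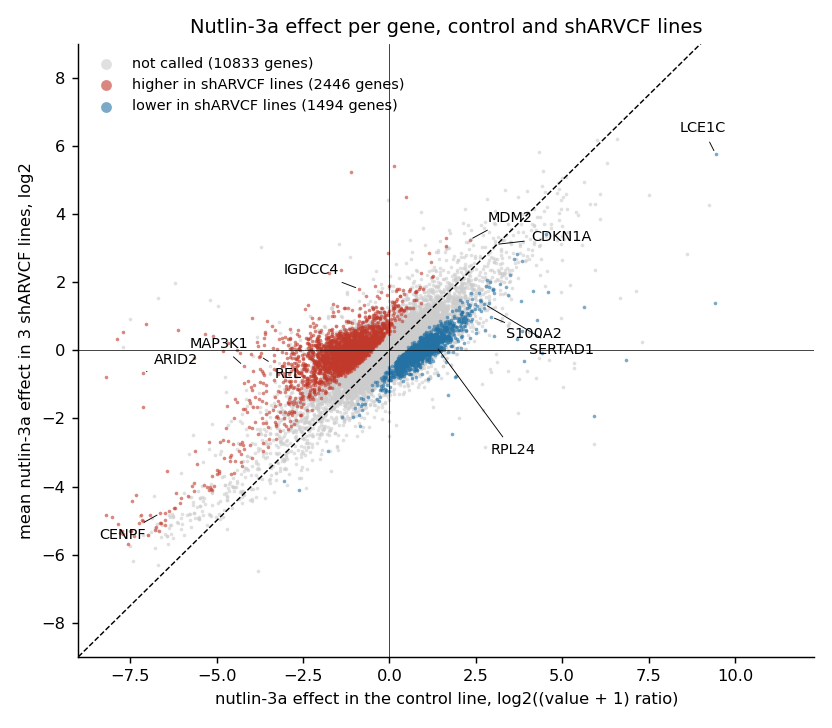
Nutlin-3a effect of each of 14773 genes in the control line (x axis, log2) against the mean of the 3 shARVCF lines (y axis, log2), coloured by the call for the difference; the dashed line marks equal effects. The 2446 genes with a higher effect in the shARVCF lines lie mostly left of 0 and near 0 on the y axis, and the 1494 with a lower effect lie mostly right of 0.

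With each line as a block, a fit that compares treated and untreated libraries within a line, 6578 genes were called (44.5%), 3727 higher (25.2%) and 2851 lower (19.3%). With shARVCF line 2 left out the count was 1920, with 1363 higher and 557 lower. Each control group holds 1 library, assumed to vary like the shARVCF groups, so that p-values measure the spread between these libraries and none between control lines. In these bulk samples, fewer cells of a type and less RNA per cell cannot be told apart.

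The control line's effect went with transcript length, far more than that of the shARVCF lines. Genes were sorted by spliced length into 10 bins of equal size. In the bin with the shortest transcripts (median 1002 bases), the median effect was log2 0.81 in the control line and -0.01, 0.06 and 0.06 in shARVCF lines 1, 2 and 3. In the bin with the longest (median 9544 bases) it was -0.95 in the control line and 0.04, 0.01 and 0.00 in the shARVCF lines. Genes whose effect was called lower in the shARVCF lines made up 38.8% of the shortest bin, and genes called higher 54.3% of the longest. Spearman's rho of the effect with spliced length over 14558 genes was -0.45 in the control line and 0.00, -0.03 and -0.02 in the shARVCF lines. The 2 treated control libraries left out of the fit gave -0.40 and -0.41 against the same untreated library. With GC content, rho was 0.35 in the control line and 0.12, 0.11 and 0.05 in the shARVCF lines. These are descriptions across genes that share libraries.

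**Figure D2:**
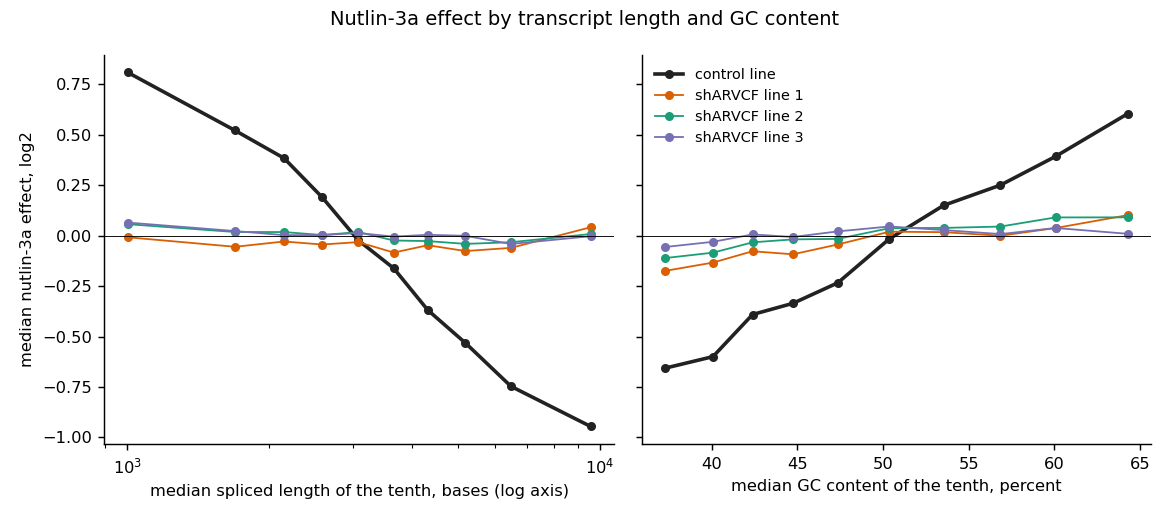
Median nutlin-3a effect (log2) in 10 bins of equal size by spliced transcript length (left, bases, log axis) and by GC content (right, percent), with 1 line per cell line. The control line goes from 0.81 in the shortest bin to -0.95 in the longest, while the shARVCF lines lie between -0.08 and 0.06 in every length bin.

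Because so much of the difference followed length, the results below are mostly also given with a smooth trend on length and GC content removed from each library. That fit called 1240 genes (8.52%), 540 higher (3.71%) and 700 lower (4.81%), so the larger side turned from higher to lower. Of the genes called without the correction, 510 were again called higher and 291 again lower, 1914 and 1191 were no longer called, and 1 turned. With the correction and the block together, 3584 genes were called (24.6%), 1545 higher (10.6%) and 2039 lower (14%). Whether the trend arose in the cells or in the preparation of the libraries was not tested.

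The core p53 response was present in both kinds of line. CDKN1A went from 3999 to 33481 scaled fragments in the control line and from 2636 to 28169.5, 3283 to 27228 and 4528 to 32933 in lines 1, 2 and 3. Its effects were log2 3.07 in the control line and 3.42, 3.05 and 2.86 in lines 1, 2 and 3, and they overlapped, with a difference of log2 0.05 (SE 0.38, adjusted p = 0.944). MDM2 (chromosome 12, 68808176 to 68850686, plus strand), both the inhibitor of p53 and its target, went from 2244 to 11199 scaled fragments in the control line and from 2051 to 21994, 2019 to 18852 and 2787 to 23800.0 in lines 1, 2 and 3. Every shARVCF effect was above the control effect, and the difference of log2 0.93 (SE 0.29, adjusted p = 0.0466) passed the test narrowly. MDM2 has a spliced length of 12633 bases in the annotation, and with the length and GC trend removed its difference was -0.20 (adjusted p = 0.769), of the opposite sign. It also missed the threshold with trimmed mean, upper-quartile or relative log expression scaling (adjusted p = 0.0619, 0.0698 and 0.0685) and in 6 of the 9 fits that left out 1 or both libraries of a shARVCF line (adjusted p up to 0.134).

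Among 101 tested p53 targets of arrest, repair and feedback, 13 had a higher and 10 a lower effect in the shARVCF lines, 22.8% in all beside 26.7% of all genes. The median difference was log2 0.00, beside 0.06 over all genes, and its sign changed with the scaling. The median effect was 1.34 in the control line and 1.44, 1.39 and 1.39 in shARVCF lines 1, 2 and 3, and 78 members rose in the control line and 87 in the shARVCF lines. With the length and GC trend removed, 4 members were higher and 7 lower, beside 3.71% and 4.81% of all genes. With line as a block, 27 were higher and 20 lower, beside 25.2% and 19.3% of all genes. Without both libraries of line 2, 9 were higher and 3 lower, beside 1363 and 557 of all 14773 genes.

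Single members of this list differed clearly. IGDCC4 (chromosome 15, 65381464 to 65423072, minus strand), a receptor of the immunoglobulin superfamily, went from 389.6 to 212 scaled fragments in the control line and from 374 to 1385, 415 to 1298 and 377 to 1397 in lines 1, 2 and 3. It fell in the control line and rose in the shARVCF lines, and the difference was log2 2.68 (SE 0.18, adjusted p = 0.000188). FAM13C behaved alike, going from 336 to 182 scaled fragments in the control line and from 310.1 to 577, 256 to 520.4 and 236 to 557 in lines 1, 2 and 3, with a difference of log2 1.93 (SE 0.25, adjusted p = 0.00189). TP53INP1, a stress protein that promotes autophagy, rose in both kinds of line, from 1042 to 2398 scaled fragments in the control line and from 701 to 4979, 811 to 4659 and 903 to 4861 in lines 1, 2 and 3. Its difference was log2 1.39 (SE 0.20, adjusted p = 0.00276).

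SERTAD1, which binds CDK4 and regulates E2F activity, went the other way. It went from 415 to 2774 scaled fragments in the control line and from 402 to 1087, 402 to 1011 and 414 to 1049 in lines 1, 2 and 3, so that the rise was greater in the control line, with a difference of log2 -1.37 (SE 0.16, adjusted p = 0.00107). With the length and GC trend removed, IGDCC4 stood at 2.24 (adjusted p = 0.0023), FAM13C at 1.56 (adjusted p = 0.0117) and SERTAD1 at -1.02 (adjusted p = 0.00985). TP53INP1 stood at 0.62 (adjusted p = 0.162) and was no longer called.

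Of 26 tested apoptosis targets of p53, 5 had a higher and 4 a lower effect, 34.6% in all beside 26.7% of all genes. With line as a block the counts were 6 and 7, beside 25.2% and 19.3% of all genes. The list had a median difference of log2 -0.09. After the length and GC correction 0 members were called (2 higher and 2 lower at an unadjusted p under 0.05), beside 8.52% of all genes. BAX, which permeabilises the mitochondrial outer membrane, went from 1423 to 5790.4 scaled fragments in the control line and from 1169 to 2806, 1225 to 3005 and 1458 to 2962 in lines 1, 2 and 3. It rose in both, less so in the shARVCF lines, by a difference of log2 -0.83 (SE 0.19, adjusted p = 0.016). After the correction BAX stood at -0.08 (adjusted p = 0.83). APAF1, the scaffold of the apoptosome, went from 523 to 301 scaled fragments in the control line and from 455 to 699, 425 to 614 and 584 to 859.6 in lines 1, 2 and 3. It fell in the control line and rose in the shARVCF lines, with a difference of log2 1.36 (SE 0.32, adjusted p = 0.0173) and a corrected value of 0.48 (adjusted p = 0.498). SIVA1, a regulator of apoptosis, fell in the shARVCF lines and was not called in the control line, at log2 -1.09 (SE 0.25, adjusted p = 0.015). Its corrected value was -0.27 (adjusted p = 0.597), and with all 10 libraries its adjusted p was 0.119. BMF, a BH3-only protein, fell in both and less so in the shARVCF lines, at log2 1.78 (SE 0.44, adjusted p = 0.0212) and 1.48 (adjusted p = 0.0752) after correction. These counts were small and moved with single libraries. The calls over all 14773 genes also fell with line 2 left out, from 3940 to 1920. With line 2 left out, 1 member was higher and 1 lower, without the untreated library of line 2 the counts were 2 and 2, and without that of line 3 they were 2 and 3. Without either the treated library of line 1 or both its libraries, 3 and 2 members were higher.

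**Figure D3:**
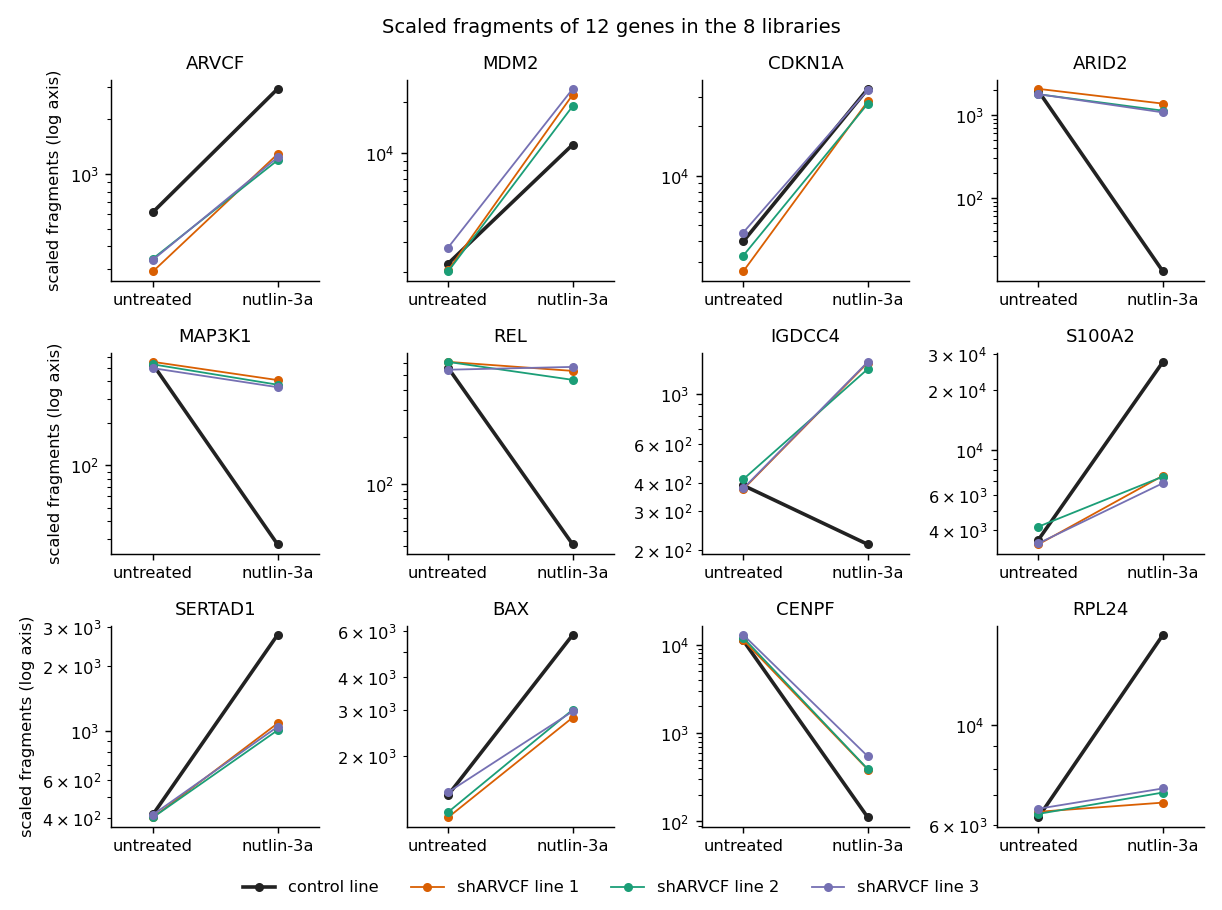
Scaled fragments (log axis) of 12 genes in the untreated and the treated library of each of the 4 lines, joined by line. CDKN1A rises alike in all 4 lines, while for ARID2, MAP3K1 and REL the treated control library lies far below the 3 treated shARVCF libraries, and for S100A2, SERTAD1, BAX and RPL24 it lies above them.

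Several of the highest differences belonged to mRNAs that were scarce in the treated control line and not in the treated shARVCF lines. ARID2 (chromosome 12, 45729665 to 45908040, plus strand), a subunit of the PBAF form of the SWI/SNF chromatin remodeller, went from 1947 to 13.0 scaled fragments in the control line and from 2066 to 1371, 1780.2 to 1127 and 1782 to 1074 in lines 1, 2 and 3. Its effects were log2 -7.13 in the control line and -0.59, -0.66 and -0.73 in lines 1, 2 and 3, a difference of log2 6.46 (SE 0.23, adjusted p = 3.25e-05). In the 2 treated control libraries left out of the fit it stood at 52.4 and 73.2, also below every shARVCF library.

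MAP3K1 (chromosome 5, 56815574 to 56896152, plus strand), a kinase upstream of JNK and ERK signalling, went from 526 to 27.3 scaled fragments in the control line and from 549.6 to 407, 528 to 377 and 495 to 362 in lines 1, 2 and 3. The difference was log2 3.77 (SE 0.21, adjusted p = 0.000126), and the later treated control libraries held 18.4 and 21.4. REL (chromosome 2, 60881521 to 60931610, plus strand), the NF-kB subunit c-Rel, went from 557 to 40.8 scaled fragments in the control line and from 608 to 532, 607 to 466 and 541 to 564 in lines 1, 2 and 3. Its difference was log2 3.57 (SE 0.22, adjusted p = 0.000177), and it stood at 19.5 and 45.4 in the later libraries. For both genes the untreated libraries of the 4 lines lay close together, and only the treated control libraries were low.

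The nuclear receptor coactivator NCOA2 went from 1575 to 127 scaled fragments in the control line and from 1541 to 1714, 1365 to 1514 and 1425 to 1577 in lines 1, 2 and 3, so that the shARVCF effects were 0.15 in all 3 lines while the control effect was -3.62. NCR3LG1, the B7-H6 ligand of an activating receptor of natural killer cells, fell in the control line and rose in the shARVCF lines, going from 192 to 25.1 scaled fragments in the control line and from 157 to 238, 169.6 to 265 and 152 to 238 in lines 1, 2 and 3. ATXN1L, a paralog of ataxin-1, differed by log2 3.93 (SE 0.40, adjusted p = 0.00105). With the length and GC trend removed the differences stayed called, at 5.46 for ARID2, 2.89 for MAP3K1, 2.44 for REL, 2.80 for NCOA2, 2.75 for NCR3LG1 and 3.16 for ATXN1L.

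Other genes near the top of this ranking are uncertain in their counting. KIAA0754 (difference 4.25) shares exons with MACF1, ZBED6 (3.63) with ZC3H11A and TMEFF1 (5.46) with a readthrough gene, and POTEF (3.99) has near-identical copies. TMEFF1 was listed at 3.07e-05 in the treated control library, so its difference depends on the 1 added to each value. YTHDC1, the nuclear reader of methylated adenosine, had a difference of 4.01 and went from 198 to 279.8 scaled fragments in the control line and from 6.25 to 244, 6.86 to 105 and 8.50 to 241 in lines 1, 2 and 3. Here the untreated shARVCF libraries were the low ones, and the later treated control libraries were listed at 0 and 7.77. With all 10 libraries its adjusted p was 0.095.

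At the other end, the drug raised some mRNAs more in the control line. S100A2 (chromosome 1, 153561108 to 153567890, minus strand), a calcium-binding protein of epithelial cells that p53 is known to induce, went from 3576 to 27492 scaled fragments in the control line and from 3395 to 7462, 4158 to 7387 and 3435 to 6851 in lines 1, 2 and 3. It rose in all 4 lines, and every shARVCF effect was below that of the control line, by a difference of log2 -1.96 (SE 0.20, adjusted p = 0.000771). With the trend removed the difference was -1.31 (adjusted p = 0.0117). HES6, a basic helix-loop-helix protein, went from 83.2 to 423 scaled fragments in the control line and from 107 to 136, 86.3 to 101 and 81.6 to 116 in lines 1, 2 and 3, a difference of log2 -1.98 (SE 0.36, adjusted p = 0.00658). HSD17B1, an enzyme of estradiol synthesis, went from 29.3 to 323 scaled fragments in the control line and from 31.3 to 94.4, 31.9 to 93.8 and 31.8 to 112 in lines 1, 2 and 3, a difference of log2 -1.80 (SE 0.36, adjusted p = 0.00888). The rise was present in the shARVCF lines for HSD17B1 and was not called there for HES6. After correction HSD17B1 stood at -2.12 (adjusted p = 0.0137) and HES6 at -1.09 (adjusted p = 0.127).

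BCL2A1, an anti-apoptotic BCL2 family member, and LCE1C, a protein of the cornified envelope, rose in both kinds of line. BCL2A1 differed by log2 -2.86 (SE 0.87, adjusted p = 0.0444). LCE1C has close paralogs, was listed at 0 in the untreated control library, and went from 0 to 693 scaled fragments in the control line and from 0.894 to 66.6, 0.98 to 118 and 1.70 to 203 in lines 1, 2 and 3, so no fold is given for it. Neither was called after the length and GC correction (adjusted p = 0.108 for BCL2A1 and 0.0804 for LCE1C). The largest negative value was that of C9orf69, which went from 0.262 to 868 scaled fragments in the control line and from 43.3 to 499, 176 to 254 and 175 to 198 in lines 1, 2 and 3. Its untreated control value lies near 0 beside 3 untreated shARVCF values above 40, its shARVCF effects range widely, and its difference was log2 -8.02 (SE 1.21, adjusted p = 0.00494), and with line as a block its adjusted p was 0.0886. TIAF1 (-4.22) shares exons with MYO18A and SYCE1L (-1.89) with MON1B. COMMD6 (-3.36) and C4orf48 (-1.88) rested on the treated control library of the fit. With the 2 later libraries in its place, COMMD6 was no longer called at -1.04 and C4orf48 stood at 0.16. The length and GC correction ended the call of SYCE1L (adjusted p = 0.274) and C4orf48 (0.145). SPOCD1 (-2.00) and LIME1, a transmembrane adaptor of lymphocyte signalling (-1.96), complete the 12 lowest, and neither was called after the correction.

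Genes of mitosis fell steeply in both kinds of line, and many fell further in the control line. Of 66 tested spindle, cytokinesis and mitotic control genes, 65 fell in the control line and 66 in the shARVCF lines. The median effect was log2 -5.39 in the control line and -4.82, -4.68 and -4.23 in shARVCF lines 1, 2 and 3. The difference was higher for 22 members and lower for 1, UBE2S, beside 16.6% and 10.1% of all genes, and the median difference was 0.93. With the length and GC trend removed, 6 were higher and 0 lower (28 and 3 at an unadjusted p under 0.05), with a median of 0.66, and with the correction and the block together 22 were higher and 2 lower. With the block alone the counts were 29 and 4, beside 25.2% and 19.3% of all genes. The shares over all genes were 3.71% and 4.81% after correction, and 10.6% and 14% with correction and block together. Of 44 centromere, kinetochore and checkpoint genes, 13 were higher and 2 lower (4 and 2 after correction, 8 and 2 without both libraries of line 2). Without both libraries of line 2, 1363 of all 14773 genes were higher and 557 lower.

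Many of these genes carry the cell cycle homology region, a short promoter element through which DREAM and MuvB complexes act. Its core word TTTGAA, on either strand, was found in the 300 bases from 250 before to 50 after the RefSeq start (GRCh38.p14) of 66.1% of 56 spindle list promoters and 41.2% of 34 centromere list promoters. Over all 11654 promoters of tested genes the share was 10.0%. It was 12.4% of the 2027 promoters matched to genes with a higher effect, and 5.64% of the 1259 matched to genes with a lower effect. A match is a run of letters, not a bound site. The 3 called spindle list members with the smallest adjusted p among those with a match in the window, ANLN at chr7:36389762-36389881 (plus strand), CIT at chr12:119877301-119877420 (minus strand) and MKI67 at chr10:128126404-128126523 (minus strand), are shown from 100 bases before to 20 after the start, with the word and its reverse complement in capitals.
ANLN: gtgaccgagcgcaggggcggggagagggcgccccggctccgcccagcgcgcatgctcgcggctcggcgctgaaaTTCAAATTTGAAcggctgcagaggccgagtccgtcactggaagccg
CIT: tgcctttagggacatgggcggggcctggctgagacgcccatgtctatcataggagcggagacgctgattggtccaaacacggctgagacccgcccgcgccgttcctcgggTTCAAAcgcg
MKI67: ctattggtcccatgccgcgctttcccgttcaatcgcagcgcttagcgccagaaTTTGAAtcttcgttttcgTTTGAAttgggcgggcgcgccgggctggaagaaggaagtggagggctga

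ANLN, the actin-binding scaffold of the cleavage furrow, went from 9599 to 132 scaled fragments in the control line and from 9558 to 517, 10369.6 to 459 and 9953 to 689 in lines 1, 2 and 3, with a difference of log2 1.99 (SE 0.28, adjusted p = 0.00265). CIT, the citron kinase of cytokinesis, went from 3088 to 20.1 scaled fragments in the control line and from 3112 to 99.0, 3148 to 87.9 and 3160.2 to 146 in lines 1, 2 and 3, with a difference of log2 2.35 (SE 0.35, adjusted p = 0.00321). MKI67, the coat protein of mitotic chromosomes, was named for its sequence after its values were seen and differed by log2 2.43 (SE 0.35, adjusted p = 0.00326). In each, the treated control library was the lowest of the 8, and the treated shARVCF libraries held several times as much yet little beside their untreated libraries.

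KIF20B, a kinesin of cytokinesis, went from 1988 to 37.1 scaled fragments in the control line and from 2148 to 123, 2355 to 142 and 2274 to 164 in lines 1, 2 and 3, a difference of log2 1.73 (SE 0.24, adjusted p = 0.00238). UBE2S, the ubiquitin-conjugating enzyme that extends chains on substrates of the anaphase-promoting complex, went against the list. It fell further in the shARVCF lines, going from 3806 to 1100.0 scaled fragments in the control line and from 3309 to 474, 3173 to 338 and 3818 to 542 in lines 1, 2 and 3, by a difference of log2 -1.16 (SE 0.34, adjusted p = 0.0395). At the kinetochore, CASC5, the scaffold KNL1, went from 1784 to 5.01 scaled fragments in the control line and from 2080.1 to 76.7, 2079 to 52.7 and 2013 to 88.4 in lines 1, 2 and 3, a difference of log2 3.38 (SE 0.37, adjusted p = 0.000971). CASC5 was under the filter minimum of 10 in the treated control library, and the 1 added to each value understates its control effect. CENPF, a large protein of the outer kinetochore, went from 11144 to 111 scaled fragments in the control line and from 11289 to 386, 11969.6 to 391 and 12903 to 545 in lines 1, 2 and 3, a difference of log2 1.85 (SE 0.28, adjusted p = 0.00317). MAD1L1, the checkpoint protein MAD1, rose in all 4 lines and more in the control line, at log2 -1.38 (SE 0.17, adjusted p = 0.00131). With the trend removed, ANLN (1.34), CIT (1.56), CASC5 (2.31) and MAD1L1 (-1.06) stayed called, and KIF20B (0.84), CENPF (0.77), UBE2S (-0.89) and MKI67 (1.40) did not.

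Condensin and cohesin, the ring complexes that fold and hold chromosomes, were mostly on the higher side too. Of 23 genes, 16 had a higher and 1 a lower effect, with a median difference of log2 0.93, falling to 0.33 with 2 higher and 0 lower after correction (6 and 0 at an unadjusted p under 0.05). The shares over all genes were 16.6% higher and 10.1% lower, and 3.71% and 4.81% after correction. SMC1A, of cohesin, went from 6886 to 1031 scaled fragments in the control line and from 7216 to 2638, 7219 to 2804 and 6909 to 2646 in lines 1, 2 and 3, a difference of log2 1.34 (SE 0.14, adjusted p = 0.000857). SMC2, of condensin, differed by log2 1.58 (SE 0.19, adjusted p = 0.00143). NCAPH2, of condensin II, was the lower one, at log2 -0.94 (SE 0.16, adjusted p = 0.00493), and after correction SMC2 stood at 0.75, SMC1A at 0.37 and NCAPH2 at -0.32, of which SMC2 alone was called.

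Genes of DNA replication fell in both kinds of line. Of 64 replication licensing and fork genes, 58 fell in the control line and 60 in the shARVCF lines, and the difference was higher for 13 and lower for 2, with a median of log2 0.19. That is 23.4% of the list, beside 26.7% of all genes. With line as a block the replication counts were 19 and 7, beside 25.2% and 19.3% of all genes. After correction 0 were higher (6 at an unadjusted p under 0.05) and 2 lower, beside 3.71% and 4.81%. MCM8, a helicase of recombination and replication, differed by log2 1.63 (SE 0.25, adjusted p = 0.00341), and RPA3, a subunit of the single-strand binding complex, by log2 -1.20 (SE 0.24, adjusted p = 0.0089). After correction MCM8 stood at 0.71 (adjusted p = 0.146) and RPA3 at -1.05 (adjusted p = 0.0368). The replication counts were 4 and 1 without both libraries of line 2, 8 and 1 without both of line 1, and 7 and 1 without the untreated library of line 2. Without both libraries of line 2, 1363 of all 14773 genes were higher and 557 lower. Of 36 Fanconi anemia and recombination genes, 12 were higher and 0 lower (0 at an unadjusted p under 0.05), with 5 and 0 after correction and 6 and 0 without line 2. Over all genes 16.6% were higher and 10.1% lower, and 3.71% and 4.81% after correction.

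BRCA2, a mediator of homologous recombination, went from 903 to 9.50 scaled fragments in the control line and from 1029 to 87.6, 1005 to 69 and 996 to 102 in lines 1, 2 and 3, a difference of log2 2.87 (SE 0.31, adjusted p = 0.000979). POLQ, the polymerase of end joining by microhomology, went from 881 to 4.01 scaled fragments in the control line and from 999.9 to 35.6, 1005 to 40.7 and 1050.2 to 68.4 in lines 1, 2 and 3, a difference of log2 3.03 (SE 0.47, adjusted p = 0.00346). Both were under the filter minimum of 10 in the treated control library, and since 1 was added to each value before the ratio, these control effects are understated. Both stayed called after correction, at 1.72 for BRCA2 and 2.01 for POLQ.

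Of 33 E2F, RB and DREAM genes, 11 had a higher and 2 a lower effect, 39.4% in all beside 26.7% of all genes, with a median difference of log2 0.80. After correction 5 were higher and 3 lower, beside 3.71% and 4.81% of all genes. With line as a block the counts were 15 and 4, beside 25.2% and 19.3%. The retinoblastoma gene RB1 went from 1430.0 to 349 scaled fragments in the control line and from 1548 to 1194, 1424 to 1109 and 1237 to 1154 in lines 1, 2 and 3. It fell by 2.03 on the log2 scale in the control line, its shARVCF effects of -0.37, -0.36 and -0.10 were not called, and the difference was log2 1.75 (SE 0.20, adjusted p = 0.00105). SKP2, the F-box protein that targets p27, fell in all 4 lines and differed by log2 1.21 (SE 0.17, adjusted p = 0.00266). E2F7, a repressor of E2F targets and itself a p53 target, went from 1896 to 1188 scaled fragments in the control line and from 1463 to 2763, 1754 to 2814 and 1821 to 3610.0 in lines 1, 2 and 3, falling in the control line and rising in the shARVCF lines by a difference of log2 1.54 (SE 0.26, adjusted p = 0.00479). After correction RB1 (1.09) and SKP2 (0.77) stayed called and E2F7 (0.79) did not. With line 2 left out, 6 members were higher and 1 lower, beside 1363 and 557 of all 14773 genes. Of 23 nucleotide synthesis genes, 3 were higher and 3 lower, 26.1% in all and near the 26.7% of all genes. The counts were 1 and 4 after correction, and 5 and 6 with line as a block, where 25.2% and 19.3% of all genes were called. Of 16 tested replication-dependent histone genes, 1 was higher and 1 lower, 12.5% in all and below the 26.7% of all genes. Histone counts were 1 and 0 after correction and 3 and 1 with the block. Most histone mRNAs of this kind lack a poly(A) tail.

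The genes with a lower effect in the shARVCF lines were led by the ribosome and the respiratory chain. Of 78 tested cytosolic ribosomal protein genes, 75 had a lower effect and 0 a higher one (0 at an unadjusted p under 0.05), beside 10.1% and 16.6% of all genes. The median effect was log2 1.23 in the control line and 0.01, 0.17 and 0.22 in shARVCF lines 1, 2 and 3, and 75 members rose in the control line against 12 in the shARVCF lines. The median spliced length of the list was 1147.5 bases, against 3369.5 over all genes. With the length and GC trend removed, 34 were lower and 0 higher, beside 4.81% and 3.71% of all genes. The median difference went from -1.09 to -0.67. With the 2 later treated control libraries in place of the first, 70 were lower.

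mRNAs of ribosomal proteins start with a pyrimidine tract through which mTOR signalling controls their translation. Of the word CTTTC and its variants, which were the word CTTTT, the word CTTCC and the word CCTTT, at least 1 began within 20 bases of the RefSeq start on the strand of the gene in 77.4% of 62 promoters of the list and in 20.4% of all promoters of tested genes. The words overlap one another. RPL9 at chr4:39458903-39459022 (minus strand), RPL24 at chr3:101686699-101686818 (minus strand) and RPL39 at chrX:119791611-119791730 (minus strand), the 3 members with the smallest adjusted p, all with a match, are shown over the same window, with the matches in capitals.
RPL9: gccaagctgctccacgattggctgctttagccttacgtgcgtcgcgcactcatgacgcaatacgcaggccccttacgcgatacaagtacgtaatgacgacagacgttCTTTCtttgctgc
RPL24: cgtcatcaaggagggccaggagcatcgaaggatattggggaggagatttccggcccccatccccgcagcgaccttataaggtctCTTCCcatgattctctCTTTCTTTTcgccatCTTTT
RPL39: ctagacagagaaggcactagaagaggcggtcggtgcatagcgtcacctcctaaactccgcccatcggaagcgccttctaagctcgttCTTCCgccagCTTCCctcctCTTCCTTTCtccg

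RPL24 (chromosome 3, 101681091 to 101686782, minus strand), a protein of the large subunit, went from 6239 to 15901 scaled fragments in the control line and from 6419.7 to 6729, 6351 to 7086 and 6521 to 7237 in lines 1, 2 and 3. The treated control library alone stood out, the effect in the shARVCF lines was not called, and the difference was log2 -1.22 (SE 0.14, adjusted p = 0.00115). RPL9 and RPL39, also of the large subunit, differed by log2 -1.29 (SE 0.15, adjusted p = 0.00107) and log2 -1.27 (SE 0.16, adjusted p = 0.00167), and RPS21, of the small subunit, by log2 -1.46 (SE 0.19, adjusted p = 0.00169). All 4 stayed called after correction, at -0.75, -1.31, -1.09 and -0.74 for RPL24, RPL9, RPL39 and RPS21. Ribosomal protein genes have many processed pseudogenes, and how shared reads were counted is not stated in the sources used here.

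Of 74 nuclear genes of oxidative phosphorylation, 60 had a lower and 0 a higher effect (67 and 1 at an unadjusted p under 0.05), with a median difference of log2 -0.98 and with 32 and 0 after correction. The shares over all genes were 10.1% lower and 16.6% higher, and 4.81% and 3.71% after correction. COX7C, a small subunit of cytochrome c oxidase, went from 1148 to 2921 scaled fragments in the control line and from 1357 to 1287, 1408 to 1282 and 1306 to 1415 in lines 1, 2 and 3, a difference of log2 -1.38 (SE 0.16, adjusted p = 0.00106). NDUFB2 and NDUFA13, of complex I, differed by log2 -1.38 (SE 0.17, adjusted p = 0.00133) and log2 -1.41 (SE 0.15, adjusted p = 0.000836), and both share exons with another listed gene. COX7C (-1.17) and NDUFB2 (-1.13) stayed called after correction and NDUFA13 (-0.53) did not.

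Genes of mitochondrial ribosomal proteins and of the proteasome were also on the lower side. Of 74 mitochondrial ribosomal protein genes, 44 were lower and 0 higher, with 11 and 0 after correction, and of 30 proteasome subunit genes, 23 were lower and 0 higher, with 9 and 0 after correction. Over all genes 10.1% were lower and 16.6% higher, with 4.81% and 3.71% after correction. At an unadjusted p under 0.05, 0 members of either list were higher in either fit. MRPL14 differed by log2 -1.27 (SE 0.17, adjusted p = 0.00189) and PSMB4, a subunit of the proteasome core, by log2 -1.09 (SE 0.14, adjusted p = 0.00171), and neither was called after correction. With line 2 left out the lower counts were 38 for oxidative phosphorylation, 24 for mitochondrial ribosomal proteins and 14 for the proteasome, beside 557 of all 14773 genes.

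**Figure D4:**
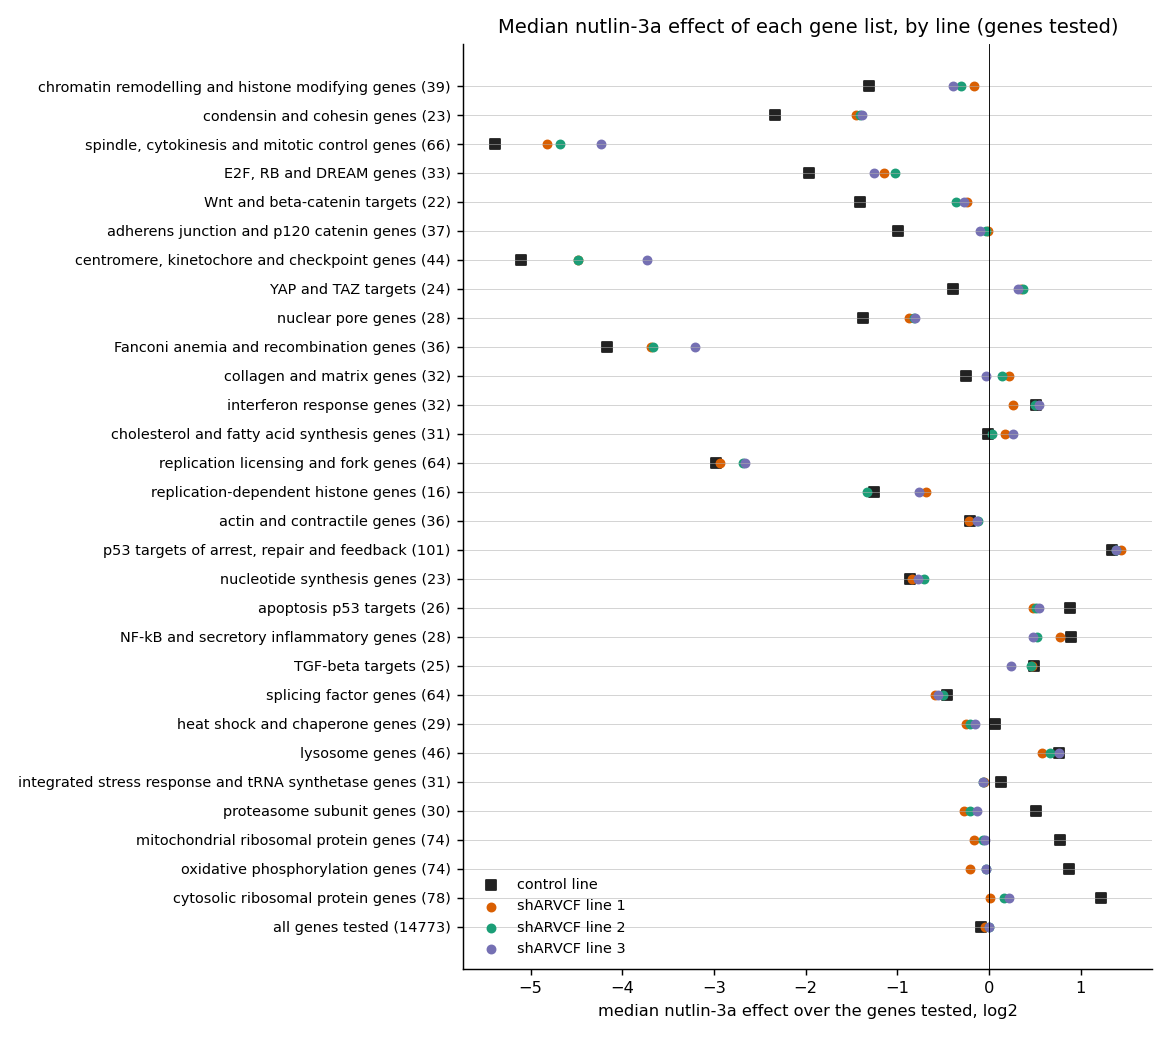
Median nutlin-3a effect (log2) of the tested members of each gene list in the control line (squares) and the 3 shARVCF lines (circles), sorted by the median difference, with all genes tested at the bottom. The control line stands apart to the left for chromatin, condensin and mitosis genes and to the right for ribosomal, respiratory chain and proteasome genes, and beside the shARVCF lines for the arrest targets of p53.

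Genes of chromatin regulation fell in the control line, and fewer of them were called lower in the shARVCF lines. Of 39 chromatin remodelling and histone modifying genes, 28 had a higher and 0 a lower effect (0 at an unadjusted p under 0.05), with a median difference of log2 1.23. The median effect was -1.31 in the control line and -0.17, -0.31 and -0.39 in the shARVCF lines. With the drug 35 members fell and 0 rose in the control line, while 19 fell and 2 rose in the shARVCF lines. The median spliced length was 8142 bases. With the trend removed 13 were higher and 0 lower (17 and 2 at an unadjusted p under 0.05), with a median of 0.37. Over all genes 16.6% were higher and 10.1% lower as fitted, and 3.71% and 4.81% with the trend removed. ARID2 leads this list. CHD9, a chromodomain helicase, went from 1904 to 467 scaled fragments in the control line and from 2032 to 2237, 2075 to 2208 and 1967 to 2037 in lines 1, 2 and 3, a difference of log2 2.12 (SE 0.15, adjusted p = 0.000256). KMT2C, a methyltransferase of histone H3 at enhancers, went from 869.9 to 187 scaled fragments in the control line and from 837 to 1047, 841 to 949.7 and 838 to 806 in lines 1, 2 and 3, a difference of log2 2.36 (SE 0.21, adjusted p = 0.000583). Both stayed called after correction, at 0.95 for CHD9 and 1.20 for KMT2C.

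ARVCF belongs to the adherens junction, and several genes of this structure had a higher effect in the shARVCF lines. Of 37 adherens junction and p120 catenin genes, 15 had a higher and 0 a lower effect, beside 16.6% and 10.1% of all genes. At an unadjusted p under 0.05 the counts were 18 and 1. The median difference was log2 0.63, and the median spliced length was 5091 bases, against 3369.5 over all genes. After correction the median was 0.14 and 1 member was higher, beside 3.71% of all genes. Without both libraries of line 2, 6 members were higher, beside 1363 of all 14773 genes. MLLT4, the nectin-binding protein afadin, went from 3228 to 939 scaled fragments in the control line and from 3315 to 2507, 2878 to 2349.6 and 3191 to 2461 in lines 1, 2 and 3, a difference of log2 1.42 (SE 0.16, adjusted p = 0.00105). ERBB2IP, the basolateral scaffold erbin, differed by log2 1.49 (SE 0.17, adjusted p = 0.00107). ZBTB33, the transcription factor Kaiso, which binds p120 catenin, differed by log2 1.30 (SE 0.19, adjusted p = 0.00277), and DSG2, a desmosomal cadherin, by log2 1.41 (SE 0.23, adjusted p = 0.00389). CDH1, the epithelial cadherin, was scarce and went from 14.5 to 2.31 scaled fragments in the control line and from 9.83 to 17.5, 8.82 to 17.6 and 15.3 to 34.7 in lines 1, 2 and 3, a difference of log2 3.17 (SE 0.82, adjusted p = 0.0232). After correction MLLT4, ERBB2IP, ZBTB33, DSG2 and CDH1 stood at 0.55, 0.46, 0.57, 0.64 and 2.63, and none of these 5 was called.

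Targets and regulators of YAP and TAZ, coactivators that sense cell contact, had 11 higher and 0 lower of 24 tested (12 and 1 at an unadjusted p under 0.05), with 4 and 0 after correction. The shares over all genes were 16.6% higher and 10.1% lower, and 3.71% and 4.81% after correction. TEAD1, the DNA-binding partner of YAP, went from 6343 to 2182 scaled fragments in the control line and from 6665 to 8350.1, 7074 to 8756 and 6026 to 7062 in lines 1, 2 and 3, a difference of log2 1.83 (SE 0.21, adjusted p = 0.00111). LATS2, a kinase that inhibits YAP, fell in the control line and rose in the shARVCF lines, going from 1149.5 to 738 scaled fragments in the control line and from 1076 to 1736, 1123 to 1602 and 1095 to 1706 in lines 1, 2 and 3, a difference of log2 1.25 (SE 0.15, adjusted p = 0.00128). PTPN14, which retains YAP in the cytoplasm, differed by log2 2.12 (SE 0.27, adjusted p = 0.00179). All 3 stayed called after correction, TEAD1 at 0.84, LATS2 at 0.73 and PTPN14 at 1.03.

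Of 22 Wnt and beta-catenin genes, 10 had a higher and 0 a lower effect (12 and 1 at an unadjusted p under 0.05), with a median difference of log2 0.67, and 3 and 0 after correction. Over all genes 16.6% were higher and 10.1% lower, with 3.71% and 4.81% after correction. APC, the scaffold of the beta-catenin destruction complex, went from 1734 to 536 scaled fragments in the control line and from 1723 to 1988, 1940.1 to 1994 and 1851 to 1964 in lines 1, 2 and 3, a difference of log2 1.80 (SE 0.15, adjusted p = 0.000458). The transcription factor SOX4 went from 2118 to 669 scaled fragments in the control line and from 2184 to 2153, 1917 to 1889.8 and 1822 to 1892 in lines 1, 2 and 3, a difference of log2 1.67 (SE 0.19, adjusted p = 0.00115). LGR4, a receptor for R-spondins, differed by log2 2.19 (SE 0.29, adjusted p = 0.00198). In all 3 the treated control library lay below the other 7. They stayed called after correction, APC at 0.70, SOX4 at 1.07 and LGR4 at 1.50. Without both libraries of line 2, 6 members of the list were higher, beside 1363 of all 14773 genes.

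**Figure D5:**
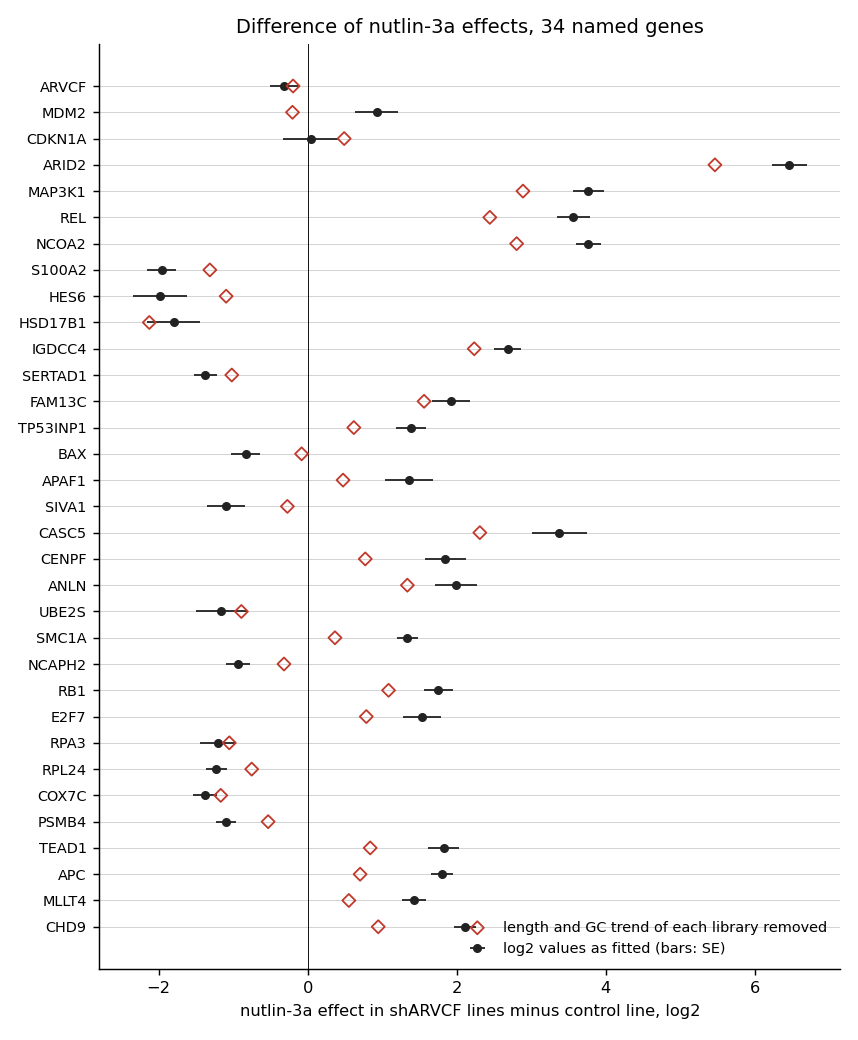
Difference of the nutlin-3a effect (mean of 3 shARVCF lines minus the control line, log2) of 33 named genes as fitted (filled circles, bars are the SE) and with the length and GC trend of each library removed (open diamonds). ARID2 stands at 6.46 and 5.46 and IGDCC4 at 2.68 and 2.24, while MDM2 goes from 0.93 to -0.20 and BAX from -0.83 to -0.08.

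Of 64 tested splicing factors, 10 had a higher and 12 a lower effect, beside 16.6% and 10.1% of all genes. After correction 2 were higher and 11 lower, beside 3.71% and 4.81%, and with line as a block 13 and 20, beside 25.2% and 19.3%. The muscleblind gene MBNL1 went from 3084 to 430.4 scaled fragments in the control line and from 3660.0 to 2345, 3766 to 2436 and 3671 to 2552 in lines 1, 2 and 3, a difference of log2 2.24 (SE 0.14, adjusted p = 0.000177). SON, a large speckle protein, and the helicase DDX17 differed by log2 1.54 (SE 0.17, adjusted p = 0.00106) and log2 1.66 (SE 0.19, adjusted p = 0.00117). SNRPD2, a core snRNP protein, was on the lower side, at log2 -1.10 (SE 0.15, adjusted p = 0.00199). After correction MBNL1 (1.39) and DDX17 (1.07) stayed called, and SON (0.62) and SNRPD2 (-0.42) did not. Without both libraries of line 2, 6 were higher and 6 lower, beside 1363 and 557 of all 14773 genes.

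Of 28 nuclear pore genes, 13 were higher and 2 lower, led by NUP153, of the nuclear basket, at log2 1.57 (SE 0.16, adjusted p = 0.000807), and POM121, a membrane nucleoporin, at log2 1.49 (SE 0.17, adjusted p = 0.00106). After correction the median of this list changed sign, from log2 0.49 to -0.05, with 2 higher and 1 lower, while NUP153 (0.80) and POM121 (1.02) stayed called. The shares over all genes were 16.6% higher and 10.1% lower, and 3.71% and 4.81% after correction.

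Of 28 NF-kB and secretory inflammatory genes, REL was higher and 3 were lower, 14.3% in all and below the 26.7% of all genes. With line as a block, where 44.5% of all genes were called, the counts were 3 and 5. NFKBIE, an inhibitor of NF-kB, went from 339.9 to 1566 scaled fragments in the control line and from 352 to 727, 390.2 to 644 and 441 to 741 in lines 1, 2 and 3, a difference of log2 -1.36 (SE 0.22, adjusted p = 0.00425), and RELB, a subunit of the noncanonical pathway, rose in both kinds of line and differed by log2 -1.07 (SE 0.31, adjusted p = 0.0374). After correction NFKBIE stood at -0.94 (adjusted p = 0.0342) and RELB at -0.46 (adjusted p = 0.41). Of 31 cholesterol and fatty acid synthesis genes, 8 were higher and 7 lower, 48.4% in all beside 26.7% of all genes. After correction 4 were higher and 0 lower, beside 3.71% and 4.81% of all genes. With line as a block the counts were 12 and 9, beside 25.2% and 19.3%. SCD, the stearoyl-CoA desaturase, went from 12733 to 3958 scaled fragments in the control line and from 12528 to 10079.8, 12996 to 10340.1 and 12935 to 11339 in lines 1, 2 and 3, a difference of log2 1.41 (SE 0.16, adjusted p = 0.000985), and stood at 0.77 after correction.

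In 6 other lists the share of called members lay below the 26.7% of all genes. Called were 2 of 32 interferon response genes, 5 of 29 heat shock and chaperone genes, 4 of 31 integrated stress response and tRNA synthetase genes, 7 of 46 lysosome genes, 6 of 25 TGF-beta targets and 6 of 32 collagen and matrix genes. With line as a block, where 44.5% of all genes were called, the higher and lower counts were 11 and 2 for interferon response, 3 and 12 for heat shock, 2 and 12 for integrated stress, 6 and 16 for lysosome, 7 and 7 for TGF-beta and 16 and 1 for collagen genes. The share of called members then lay above that of all genes for 5 of these 6 lists and below it for interferon response genes. After the length and GC correction, the collagen list had 1 higher member, the heat shock list 3 lower, the lysosome list 2 lower and the TGF-beta list 1 lower, and the other two had 0 called by limma (1 and 0 at an unadjusted p under 0.05 for interferon response and 1 and 5 for integrated stress). Among 36 actin and contractile genes, 14 were called (38.9%), 7 higher and 7 lower, with 1 and 0 after correction and 11 and 11 with the block. Over all genes 8.52% were called after correction and 44.5% with the block.

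Markers of cell identity were checked for the label. The osteoblast lineage markers RUNX2 (348 to 1444 scaled fragments over the 8 libraries), SPARC and COL1A1 were present, while SP7, IBSP, DMP1 and DLX5 did not exceed 1.96 in any library. Of 12 blood cell markers, 3 were at 0 in all 8 libraries and PTPRC did not exceed 12.7. CD68 was present and went from 79.2 to 182.9 in the control line. It went from 30.6 to 103.4, 133.4 to 252.6 and 152.8 to 379.9 in lines 1, 2 and 3, a rise not called in either kind of line. ITGAM rose by call in the shARVCF lines, by log2 2.44, 1.96 and 1.98, and its control effect of 1.93 was not called. The difference was called for 0 of the 3 tested blood cell markers. The 6 endothelial markers summed to between 221 and 489. Summed mesenchymal markers went from 153495 to 117599 with the drug in the control line, and from 138107 to 242727, 205748 to 323144 and 185537 to 252868 in shARVCF lines 1, 2 and 3. That sum is mostly fibronectin (FN1) and vimentin (VIM), which went opposite ways in the shARVCF lines. FN1 rose there from 81811 to 205022, 138420 to 271803 and 115416 to 196128. VIM fell from 46318 to 27686, 55857 to 40159 and 59680 to 45662. The median effect of the 8 tested mesenchymal markers was log2 0.01, -0.04 and 0.01 in these lines. Summed epithelial markers, mostly the keratins KRT8 and KRT18, went from 12265 to 26974 in the control line, and from 9759.6 to 9098.7, 10161 to 10331 and 13378 to 14412 in the shARVCF lines. Most members did not follow this sum in the control line. Of 7 tested, 2 rose and 4 fell there by call, with a median effect of log2 -1.21. In the shARVCF lines 0 rose and 3 fell. The part of either shift in the other results was not tested.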

How the data were processed

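Poly(A) RNA of U2OS cells was sequenced from stranded libraries. Per the submitters' processing notes, bcl2fastq 1.8.3, HISAT2 2.1.0 and Cuffnorm 2.2.1 were used with build hg38. The annotation was not given in the sources used here. In all, the authors deposited 1 table of a signal per gene and library, an estimated fragment number scaled across libraries. The values are not counts: between 35.2% and 52.8% of the positive values in a library were whole multiples of its lowest step, within 0.01. The count-based test was therefore not run.

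Values were analysed as log2(value + 1) with limma 3.58.1 in R 4.3.3. A model with 4 group means was fitted to 8 libraries (4 residual degrees of freedom), with variances moderated by a trend and robust weights, two-sided tests, and Benjamini-Hochberg adjustment over 14773 genes. Log2 differences understate changes of genes near 0. The replicate number stands for a cell line, so it pairs libraries. Residuals of the treated and untreated libraries of lines 1, 2 and 3 correlated across genes at 0.28, 0.30 and 0.34, and those of different lines at -0.20 to -0.09. Residuals were deviations from the group mean, so those of a group sum to 0 for each gene. The negative values between lines follow from this and the positive ones, and are no separate result. Line as a block (2 residual degrees of freedom) was an alternative. The fit was tested on simulated data.

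Positions, spliced lengths and GC contents were taken from the longest basic transcript in GENCODE release 29, which need not be the mRNA measured. Of 26040 symbols, 24016 matched the annotation directly, 695 through a former symbol, and 1329 did not match. The length and GC trend was a natural spline with 4 degrees of freedom for each, fitted per library to 14558 genes. Promoters come from RefSeq (GRCh38.p14), with 16190 symbols matched. Missing entries were not replaced. Alternatives covered the pseudocount, the filter, 4 library scalings, moderation, the length and GC trend, the block, the 2 libraries left out and single libraries.

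The genes, 34 lists and comparisons were chosen with earlier results of these data known. ARVCF, MDM2 and CDKN1A were always named. Others were the 12 highest and 12 lowest called differences with a mean of at least 50 and with all 3 lines on 1 side, leaving out antisense, host, readthrough, microRNA, snoRNA, LOC, LINC and pseudogene entries, up to 4 members of each list by adjusted p, and single members against their list. Not every gene the rule takes is printed, and some are not reported here.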

Additional observations from a re-analysis of the deposited data

Results flagged for a closer look

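The nutlin-3a effect differed between the shARVCF lines and the control line, by the test of the difference itself, for 3940 genes, of which 2446 had a higher and 1494 a lower effect in the shARVCF lines. The named genes among them follow with the log2 difference in brackets. Each had all 3 shARVCF effects on 1 side of the control effect, as did every called gene. The genes ranked by size were chosen with that condition, so for them it is no separate result.

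Among p53 regulators and targets the difference was higher for MDM2 (0.93), IGDCC4 (2.68), FAM13C (1.93), TP53INP1 (1.39), APAF1 (1.36) and BMF (1.78) and lower for SERTAD1 (-1.37), SIVA1 (-1.09) and BAX (-0.83). Of the genes ranked by size it was higher for ARID2 (6.46), TMEFF1 (5.46), KIAA0754 (4.25), YTHDC1 (4.01), POTEF (3.99), ATXN1L (3.93), MAP3K1 (3.77), NCOA2 (3.77), ZBED6 (3.63), REL (3.57) and NCR3LG1 (3.52), and lower for C9orf69 (-8.02), TIAF1 (-4.22), LCE1C (-3.67), COMMD6 (-3.36), BCL2A1 (-2.86), SPOCD1 (-2.00), HES6 (-1.98), LIME1 (-1.96), S100A2 (-1.96), SYCE1L (-1.89), C4orf48 (-1.88) and HSD17B1 (-1.80). The value for LCE1C, listed at 0 in the untreated control library, depends on the 1 added to each value. So does that for TMEFF1, listed at 3.07e-05 in the treated control library.

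In the cell cycle lists it was higher for CASC5 (3.38), CENPF (1.85), ANLN (1.99), CIT (2.35), KIF20B (1.73), MKI67 (2.43), SMC1A (1.34), SMC2 (1.58), RB1 (1.75), SKP2 (1.21), E2F7 (1.54), BRCA2 (2.87), POLQ (3.03) and MCM8 (1.63) and lower for MAD1L1 (-1.38), UBE2S (-1.16), NCAPH2 (-0.94) and RPA3 (-1.20). In the ribosomal, respiratory chain and proteasome lists it was lower for RPL9 (-1.29), RPL24 (-1.22), RPL39 (-1.27), RPS21 (-1.46), COX7C (-1.38), NDUFB2 (-1.38), NDUFA13 (-1.41), PSMB4 (-1.09) and MRPL14 (-1.27).

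Among genes of cell contact, chromatin, splicing, the nuclear pore and lipid synthesis it was higher for TEAD1 (1.83), LATS2 (1.25), PTPN14 (2.12), APC (1.80), SOX4 (1.67), LGR4 (2.19), MLLT4 (1.42), ERBB2IP (1.49), ZBTB33 (1.30), DSG2 (1.41), CDH1 (3.17), KMT2C (2.36), CHD9 (2.12), MBNL1 (2.24), SON (1.54), DDX17 (1.66), NUP153 (1.57), POM121 (1.49) and SCD (1.41) and lower for SNRPD2 (-1.10), NFKBIE (-1.36) and RELB (-1.07).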

How the results depend on the processing

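The difference was called for 3940 genes, 2446 higher and 1494 lower. With line as a replicate block, which pairs the 2 libraries of each line, it was called for 6578, 3727 higher and 2851 lower. With the length and GC trend removed, 1240 were called, 540 higher and 700 lower, and 2536 genes were lower with the drug in the control line. With the block added to that correction, 1545 were higher, and in the shARVCF lines alone 4765 genes rose. The cause of these shifts was not tested. Equal library totals moved the median difference of all genes from log2 0.06 to 0.17, and 71.0% of the calls were then higher, beside 62.1% as fitted, 54.4% with upper-quartile factors and 43.5% after the correction. With treated control libraries 2 and 3 in place of the first, 3407 of the 3940 genes had the same call and 0 the opposite one.

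Fits that left out 1 or both libraries of a shARVCF line gave 1920 to 4173 calls, 1363 to 2521 higher and 557 to 1652 lower. The lowest counts came without both libraries of line 2, where 6 libraries remained and 1880 of the 3940 calls were kept. The drug effect in the shARVCF lines was called for 3964 to 5860 genes, 1877 to 2855 higher and 2087 to 3084 lower. No control library could be left out, since each control group holds 1.

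Of 83 genes examined singly, the length and GC correction reversed MDM2 (-0.20, and -0.20 with the block) and ended the call of 31. Without both libraries of line 2 the call ended for MDM2, LCE1C, BCL2A1, SPOCD1, SYCE1L, C4orf48, HSD17B1, BAX, BMF, CDH1 and RELB, and without both of line 1 for MDM2, BCL2A1, SYCE1L, APAF1, UBE2S, CDH1 and RELB. Leaving out line 3 ended that of TIAF1, and leaving out 1 library ended calls only among MDM2, BCL2A1, SPOCD1, SYCE1L, UBE2S and RELB. The later treated control libraries in place of the first reversed C4orf48 (0.16) and ended the call of TMEFF1, COMMD6, SIVA1, UBE2S, POLQ, RPA3 and CDH1, and the block ended that of C9orf69. With all 10 libraries the call ended for TMEFF1, YTHDC1, COMMD6, C4orf48, SIVA1, RPA3, NDUFB2 and CDH1. Without a filter, and without trend or robust weights, it ended for MDM2, BCL2A1, SPOCD1, UBE2S and RELB, with equal totals for UBE2S and RELB, with each of the other 3 scalings for MDM2, and with a pseudocount of 10 for CDH1. A pseudocount of 0.1, a minimum value of 50 and leaving out genes that share exons ended 0 among the genes they kept.

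The values are not counts, so depth could not be set against them. BRCA2, POLQ, CASC5 and TMEFF1 stood at 9.50, 4.01, 5.01 and 3.07e-05 in the treated control library, to which 1 was added. Only 1 control library per treatment entered the fit. The use of the later control libraries alone, the fit without genes that share exons and the correction with the block were chosen after seeing the data.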
